A study of Arabidopsis thaliana with 2 samples.

Results

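The genes described here are 116 loci that the authors listed as lower in leaves of WRKY75RNAi plants than in wild-type leaves and that their ontology table places in the endomembrane system. The term row of that table holds 131 of the lower loci. The 14 loci that the same table also places under defense response were set aside, and of 8 further loci left out by name only AT2G44240 was still among the rest, which gives 116 of 931 lower loci and of 2159 loci listed in either direction. Members were thus selected on the measured difference between the libraries (at least 2-fold lower RPKM in WRKY75RNAi and a p-value cut, called by the authors). The lower values below therefore describe the members and no test is made of them. A scarce transcript passes a p-value cut only with a larger difference.

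Polyadenylated RNA was sequenced from the third and the fourth leaves of Arabidopsis thaliana of the Col-0 ecotype, in 1 library of the wild type and 1 of WRKY75RNAi, both at 28 days of age. WRKY75RNAi plants carry a construct for RNA interference against WRKY75, in which double-stranded RNA directs the breakdown of the matching transcript. The promoter of the construct, the number of independent lines and the number of plants pooled are not stated in the labels. WRKY75 itself had 29.2 RPKM (reads scaled to transcript length and library total) in the wild type and 8.87 in WRKY75RNAi, from 1699 and 476 reads, so part of its transcript was still present. The library totals were 41328980 reads in the wild type and 38042482 in WRKY75RNAi. With 1 library for each genotype, differences between plants and differences between genotypes cannot be told apart. In whole leaves, fewer cells of a type and less RNA per cell cannot be told apart either. None of 27 marker genes for 8 leaf, root, flower and seed cell types was listed in either direction, and since only differing transcripts were listed, the leaf identity of the samples could not be checked.

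The endomembrane system of a plant cell comprises the endoplasmic reticulum, the Golgi apparatus, the vacuole, the plasma membrane and the vesicles between them. Proteins made at the endoplasmic reticulum pass through it to the cell surface as receptors and transporters, or leave the cell as wall proteins, oxidases and peptides. WRKY75 is a transcription factor of the WRKY family, whose members bind the W-box, a short promoter element, and it is known in Arabidopsis for roles in leaf senescence, phosphate starvation and pathogen response. The members were sorted by hand into 12 classes of role from their RefSeq descriptions. A group of 38 encodes receptor-like kinases, lectins and receptor-like proteins of the cell surface, 28 encode oxidases and other redox enzymes (8 FAD-binding Berberine proteins, 10 cytochromes P450 and 10 peroxidases and other redox proteins), and 21 encode wall proteins and carbohydrate enzymes. Channels and transporters account for 7, small secreted peptides, proteases and inhibitors for 7, and the remaining 15 have other roles.

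Reads of all 116 genes together made up 0.521% of the wild-type library, 215485 reads, and 0.200% of the WRKY75RNAi library, 76244 reads. Of the members, 107 had reads in both libraries and 9 had none in WRKY75RNAi. Over the 107 the log2 ratio of WRKY75RNAi to wild type ranged from -3.64 to -1.004 with a median of -1.51, against -1.48 over all lower loci with reads in both libraries. Members at least 4-fold lower numbered 26 of 107, or 24.3%, where 23.4% of all lower loci were. The size of the difference was therefore close to that of the lower loci at large, and the authors listed 3.17% of 31475 tested transcript models as lower and 4.32% as higher.

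Levels covered a wide range, and few genes carried most of the signal. The 10 most abundant members made up 69.8% of the summed wild-type RPKM of all 116, which was 2548 in the wild type and 958 in WRKY75RNAi. EXT3 alone, an extensin that crosslinks into the cell wall, had 893 RPKM in the wild type and 356 in WRKY75RNAi. At the other end, 36 members had under 1 RPKM in the wild type and 14 had under 20 reads. An exact 95% interval of the ratio of reads (Clopper-Pearson, counting error only) reached differences smaller than 2-fold for 52 of 116 members, or 44.8%, where 47.4% of all lower loci did. The interval lay wholly at or beyond 4-fold for 11 members, among them the oxidase genes AT1G26390 and AT1G26380, the kinase genes CCR4, LYK2 and WAKL7, and DOX1.

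**Figure D1:**
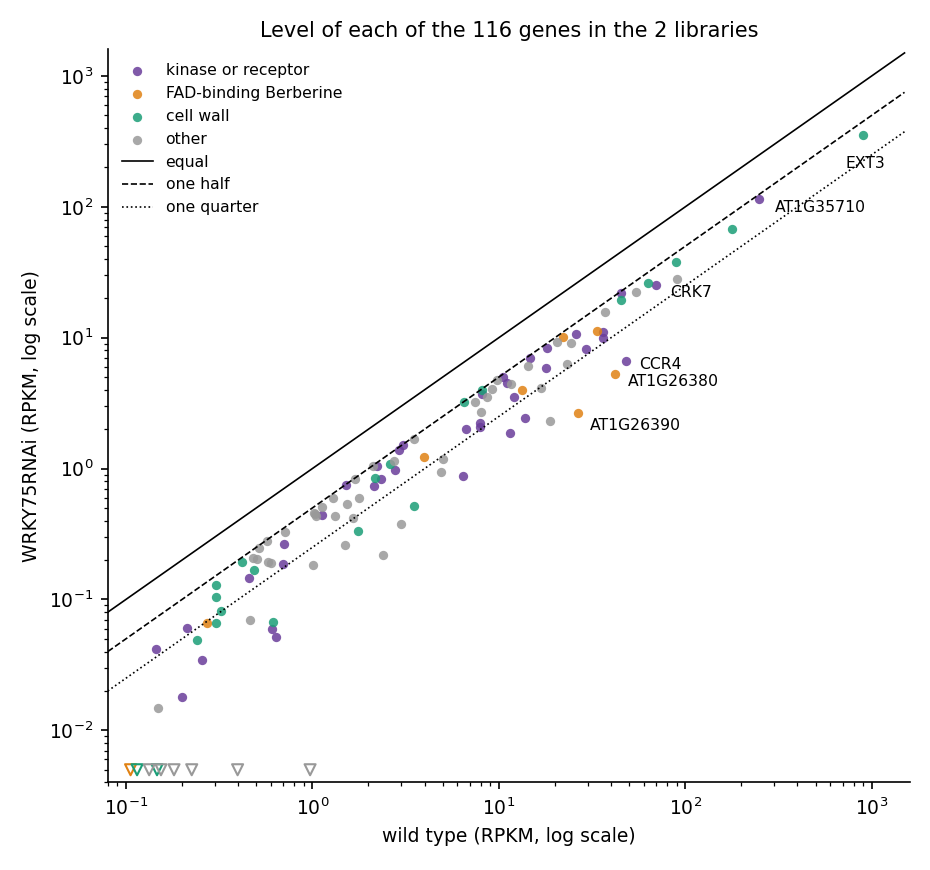
Level of each of the 116 genes in the wild type (horizontal axis, RPKM, log scale) and in WRKY75RNAi (vertical axis, RPKM, log scale), coloured by role; lines mark equal levels and levels 2-fold and 4-fold lower. Every point lies on or below the 2-fold line because the rule chose it there, EXT3 stands at 893 against 356 RPKM, and the open triangles at the bottom are the 9 genes with 0 reads in WRKY75RNAi.

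**Figure D2:**
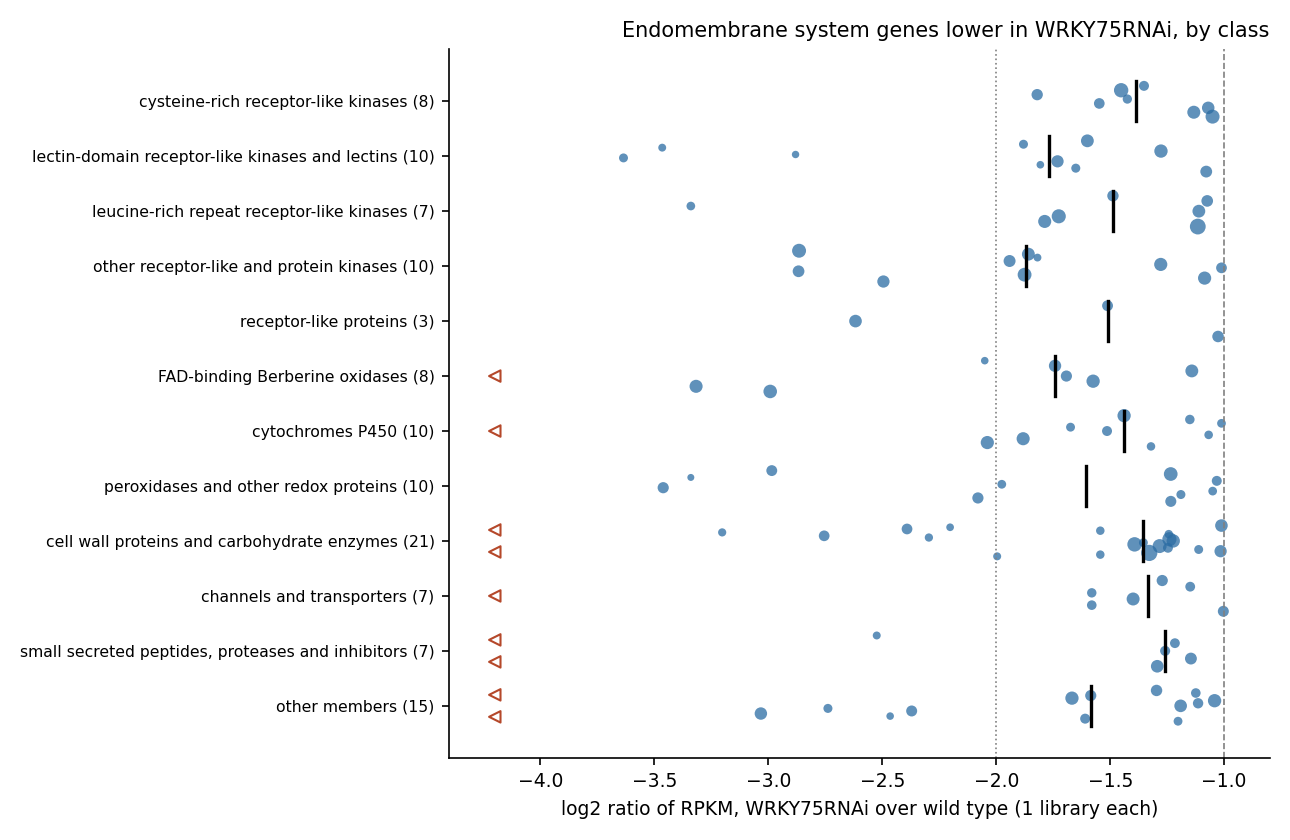
Log2 ratio of WRKY75RNAi to wild type (horizontal axis) for each gene in the 12 classes of role; the size of a point grows with wild-type reads, black bars are class medians over genes with reads in both libraries, open triangles are genes with 0 WRKY75RNAi reads, and the dashed and dotted lines mark 2-fold and 4-fold lower. Class medians run from -1.87 for the other kinases to -1.26 for the small secreted peptides, proteases and inhibitors. Among genes with reads in both libraries, channels and transporters end at -1.58 and cysteine-rich kinases at -1.82.

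Among the cell-surface receptors, the class of cysteine-rich receptor-like kinases holds 8 genes, all on chromosome 4. AT4G11521 among them is described by RefSeq only as related to receptor-like protein kinases. Its model is short, with 1150 bases against 2391 in CRK32. Kinases of this family carry an extracellular domain with conserved cysteines and are known for roles in pathogen and oxidative stress responses. Their log2 ratios lay between -1.82 and -1.05 with a median of -1.39, and none was 4-fold lower. CRK7 was the most abundant, with 69.4 RPKM in the wild type and 25.4 in WRKY75RNAi, and CRK36 had 45.5 and 22.0. The ratio was furthest from equality in AT4G11521, at 7.91 RPKM in the wild type and 2.24 in WRKY75RNAi, a log2 ratio of -1.82 with an interval from -2.16 to -1.496. CRK31 had 216 reads in the wild type and 68 in WRKY75RNAi, CRK32 had 70 and 24, and CRK26 had 122 and 44. CRK37 had 18.2 RPKM in the wild type and 8.28 in WRKY75RNAi, and CRK39 had 10.5 and 5.01. The 4 more abundant genes (CRK7, CRK36, CRK37 and CRK39) had log2 ratios from -1.45 to -1.05 and the 4 scarcer ones from -1.82 to -1.35.

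The 10 lectin-domain receptor-like kinases and lectins, whose extracellular domains resemble sugar-binding proteins, were mostly rare transcripts, with a median of 57 wild-type reads. Their median log2 ratio was -1.77. The 3 genes more than 4-fold lower were all scarce: AT3G45330 (LecRK-I.1) had 54 reads in the wild type and 4 in WRKY75RNAi, and the interval of its log2 ratio ran from -5.56 to -2.20. AT4G27290 had 24 and 2 reads, and AT3G51710 had 16 and 2. AT5G06740 (LecRK-S.5), with 56 and 14 reads, and AT1G61440, with 58 and 17, were also near the lower end of detection. Better measured were AT1G67520, at 6.66 RPKM in the wild type and 2.01 in WRKY75RNAi, and AT4G04960 (LecRK-VII.1), at 26.1 and 10.8. For AT1G11300 (EGM1), with 592 and 258 reads, RefSeq notes that the TAIR10 model joins what are now regarded as separate genes, so its value may cover both.

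Leucine-rich repeat receptor-like kinases, the family of many known hormone and pathogen receptors, gave 7 members. AT1G35710 dominated them, with 248 RPKM in the wild type and 114 in WRKY75RNAi, a log2 ratio of -1.12. AT1G51890 had 36.3 and 11.0 RPKM and its neighbour AT1G51860 had 12.1 and 3.50, both close to a log2 ratio of -1.75 (-1.73 and -1.79). AT5G59680 had 387 and 127 reads. AT5G39390, with 44 reads in the wild type and 4 in WRKY75RNAi, was the only one of the 7 over 4-fold lower.

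Over genes with reads in both libraries, the 10 other kinases had the most negative class median, -1.87. That ranking leaves out genes with 0 WRKY75RNAi reads, such as 1 of the 8 Berberine genes. The other kinases were mostly well counted. CCR4, a kinase related to the maize receptor kinase CRINKLY4, had 48.3 RPKM in the wild type and 6.64 in WRKY75RNAi. Its log2 ratio was -2.87 with an interval from -2.99 to -2.74, which makes it the only one of the 10 most abundant members that was over 4-fold lower. WAKL7 and WAKL10 are wall-associated kinase-like genes; kinases of this family span the plasma membrane and touch the pectin of the wall. WAKL7 had 13.7 RPKM in the wild type and 2.44 in WRKY75RNAi, and WAKL10 had 36.4 and 9.92, log2 ratios of -2.49 and -1.88. LYK2, a kinase with the LysM fold that in related receptors binds chitin, had 547 reads in the wild type and 69 in WRKY75RNAi. The whole of LYK2 lies opposite AT3G01830, a calcium-binding protein gene that was itself listed as lower with 3841 and 1570 reads, and because the strand setting is not given, the reads of the pair cannot be told apart. AT5G38250 had 676 and 162 reads, while AT4G00960, with 230 and 105, stood at a log2 ratio of -1.01.

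Receptor-like proteins have the leucine-rich repeats of such receptors but no kinase domain. RLP20 had 11.4 RPKM in the wild type and 1.86 in WRKY75RNAi, a log2 ratio of -2.62. RLP28, with 254 and 82 reads, and RLP9, with 456 and 206, were nearer to equality at -1.51 and -1.03.

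The FAD-binding Berberine proteins form a family of flavin-dependent oxidases, secreted enzymes that in Arabidopsis include oxidases of alcohols and of cell wall sugars. All 8 members lie on chromosome 1, and 7 of them fall in 2 tandem arrays. In the first array AT1G26380 had 42.3 RPKM in the wild type and 5.31 in WRKY75RNAi, a log2 ratio of -2.99 (interval -3.15 to -2.83). AT1G26390 had 26.5 and 2.66, a log2 ratio of -3.32 (interval -3.55 to -3.09), the most negative ratio among members with at least 1000 wild-type reads. AT1G26420 had 33.7 and 11.3, a log2 ratio of -1.57. AT1G26410 lies between them and has the same RefSeq description; it was listed as lower with 509 and 47 reads, a log2 ratio of -3.32, but is not in the term. AT1G26400 was listed in neither direction. In these 2 libraries AT1G26420 was nearer to equality than the other 3 listed genes, by intervals that do not overlap. Those intervals cover counting error only, reads may pass between such similar copies, and the difference between neighbours was not tested.

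In the second array AT1G30730 had 13.3 RPKM in the wild type and 3.97 in WRKY75RNAi, AT1G30700 had 3.99 and 1.23, and AT1G30720 had 22.2 and 10.08. Their log2 ratios were -1.74, -1.69 and -1.14. AT1G30740 had 18 reads in the wild type and 4 in WRKY75RNAi, and AT1G30710 between them was not listed. The remaining member, AT1G01980, had 8 reads and 0. In coding sequence AT1G26380, AT1G26390 and AT1G26420 shared 87.1 to 87.9% of aligned bases and AT1G30720 and AT1G30730 shared 85.1%, while the median over all 28 pairs of the 8 genes was 64.3%. AT1G26390 shares 1.86% of its 50-base words with AT1G26400 and AT1G26410, but the read length is not stated, and with shorter reads more could be exchanged between them.

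Promoters of 4 of these genes are shown because the Berberine class had the W-box in 7 of 8 promoters, a higher share than in any other class of more than 3 genes. Each sequence is the 300 bases before the annotated transcript start in RefSeq TAIR10.1, written 5′ to 3′ on the strand of the gene, with every TTGACC or TTGACT on either strand in capitals (GGTCAA and AGTCAA are the same motifs read on the other strand).
AT1G26380, chr1:9128569-9128868, minus strand: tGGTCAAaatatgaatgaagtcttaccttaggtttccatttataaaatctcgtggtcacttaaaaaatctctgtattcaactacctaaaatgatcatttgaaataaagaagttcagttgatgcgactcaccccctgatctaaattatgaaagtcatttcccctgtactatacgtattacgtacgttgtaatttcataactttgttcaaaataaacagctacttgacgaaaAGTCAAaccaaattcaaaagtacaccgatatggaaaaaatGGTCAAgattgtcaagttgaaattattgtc
AT1G26390, chr1:9131780-9132079, minus strand: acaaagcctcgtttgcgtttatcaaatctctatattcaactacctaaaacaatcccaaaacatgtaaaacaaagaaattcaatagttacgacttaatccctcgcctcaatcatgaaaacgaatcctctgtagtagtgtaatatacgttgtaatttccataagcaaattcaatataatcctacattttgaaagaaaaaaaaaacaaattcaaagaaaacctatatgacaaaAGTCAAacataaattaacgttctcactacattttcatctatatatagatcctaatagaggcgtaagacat
AT1G26420, chr1:9143337-9143636, minus strand: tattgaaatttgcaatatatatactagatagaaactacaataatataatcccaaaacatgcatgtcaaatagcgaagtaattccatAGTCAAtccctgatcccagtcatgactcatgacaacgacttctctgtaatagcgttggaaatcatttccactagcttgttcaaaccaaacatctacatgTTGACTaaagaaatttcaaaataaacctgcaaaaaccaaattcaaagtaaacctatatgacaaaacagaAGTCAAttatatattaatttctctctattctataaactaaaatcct
AT1G30720, chr1:10897625-10897924, plus strand: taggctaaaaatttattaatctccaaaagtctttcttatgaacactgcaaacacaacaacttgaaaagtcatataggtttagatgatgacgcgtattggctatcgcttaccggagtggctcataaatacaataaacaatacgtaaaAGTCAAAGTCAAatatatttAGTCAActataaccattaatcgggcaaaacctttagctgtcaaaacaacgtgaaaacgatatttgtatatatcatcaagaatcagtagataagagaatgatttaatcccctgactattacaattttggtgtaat
AT1G26380 and AT1G26390 each hold a match beginning 70 bases before the start, within a similar stretch, and that of AT1G26420 nearest to its start begins at 46 bases. AT1G30720 holds a direct repeat of the motif with no base between the copies, at 154 and 148 bases, and another copy at 134. Since tandem copies share ancestry, their promoters are not independent of each other, and a match is a description of letters, not evidence that WRKY75 binds there.

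**Figure D3:**
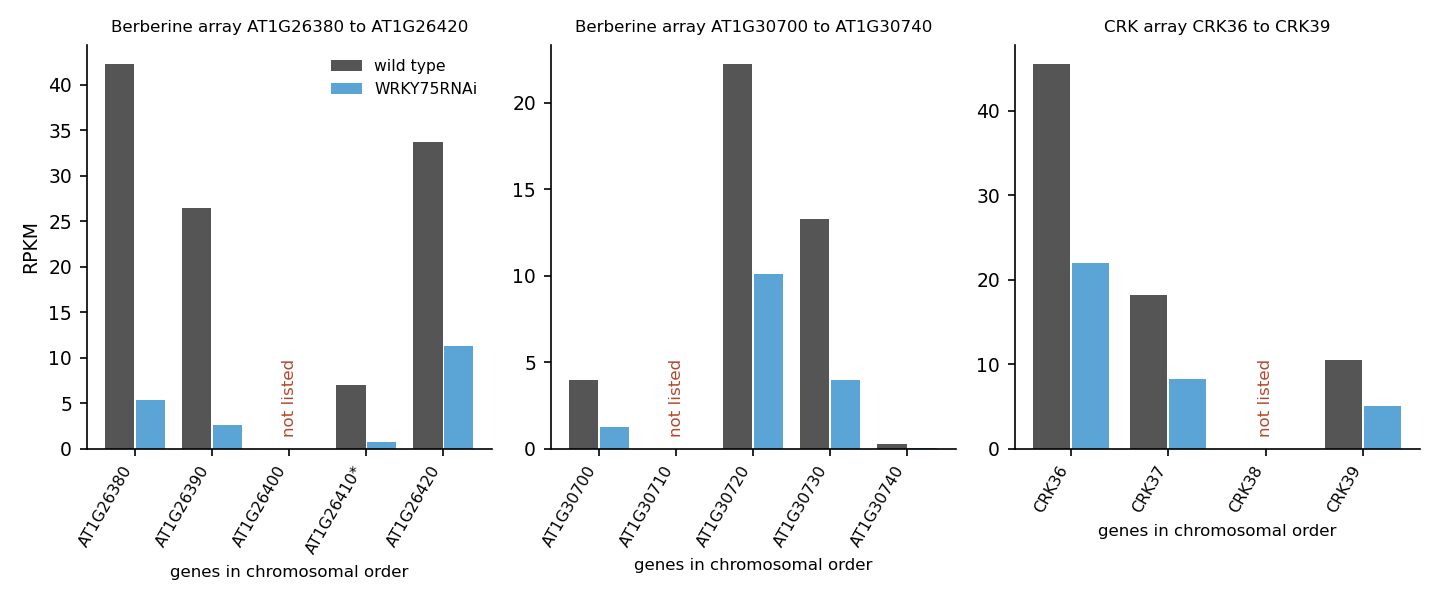
Level (vertical axis, RPKM, a separate linear scale in each panel) in the wild type and WRKY75RNAi, 1 library each, for the genes of both FAD-binding Berberine arrays and of the CRK36 to CRK39 array, in chromosomal order (horizontal axis); an asterisk marks a gene listed as lower that is not a member, and a gene listed in neither direction has no bar. AT1G26380 stands at 42.3 against 5.31 RPKM and AT1G26420 in the same array at 33.7 against 11.3.

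Cytochromes P450 are heme oxidases held at the endoplasmic reticulum by a membrane anchor, and 10 were members. CYP76C6 had 16.9 RPKM in the wild type and 4.12 in WRKY75RNAi, a log2 ratio of -2.04, the most negative of the class. CYP71A12, which acts in the synthesis of indole-derived defence compounds such as camalexin and the indole carbonyl nitriles, had 23.3 and 6.33, a log2 ratio of -1.88. CYP707A3, an abscisic acid 8'-hydroxylase that inactivates the hormone, had 24.5 and 9.05, and its second listed transcript model gave -1.46 against -1.44. These 3 were the only P450 members with over 1000 wild-type reads.

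The rest of the class was scarce. CYP72A9 had 121 reads in the wild type and 39 in WRKY75RNAi, CYP78A9 had 52 and 15, and CYP705A13 had 10 and 0, for which the exact interval of the log2 ratio reached up to -1.04. CYP82C2, an enzyme of the same indole pathway, had 82 and 34 reads, and CYP82C3, with 1 gene between them, had 46 and 21. Their coding sequences are 93.1% identical and CYP82C3 shares 9.99% of its 50-base words with other genes, so reads may pass between the copies. Genes described as cytochrome P450 were listed in both directions: of 226 annotated, 17 (7.52%) were listed as lower and 16 (7.08%) as higher. Of all annotated protein-coding genes, 3.08% were listed as lower and 4.17% as higher. The higher ones included CYP94B3, at 99.4 RPKM in the wild type and 320 in WRKY75RNAi, and CYP707A1, which encodes the same kind of abscisic acid hydroxylase as CYP707A3, at 2.45 and 7.34.

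Peroxidases and other redox proteins had a median log2 ratio of -1.61. Of the 10, 4 were over 4-fold lower, where 23.4% of all lower loci with reads in both libraries were at least 4-fold lower. Among these 4, AT4G30170 had only 11 reads in the wild type and 1 in WRKY75RNAi, and the interval of its log2 ratio ran from -8.77 to -0.557. DOX1, a dioxygenase that adds oxygen to fatty acids to form oxylipins, had 335 reads in the wild type and 28 in WRKY75RNAi, a log2 ratio of -3.46 (interval -4.07 to -2.90). AT5G19880, a secreted heme peroxidase, had 258 and 30 reads, and PER4, of the same kind, had 340 and 74, log2 ratios of -2.98 and -2.08. The most abundant gene of the class, AT4G39830, a multicopper oxidase-type cupredoxin protein, had 37.1 RPKM in the wild type and 15.8 in WRKY75RNAi, a log2 ratio of -1.23. AT3G62950, a thioredoxin-fold protein, had 47 and 11 reads. Of 70 genes described as peroxidase, 9 were listed as lower, 5 of them members, and none as higher, where 3.08% of all 27562 annotated protein-coding genes were listed as lower and 4.17% as higher.

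Cell wall proteins and carbohydrate enzymes were the largest class, with 21 genes and a median log2 ratio of -1.35. Its abundant members lay in a narrow band. EXT3 had a log2 ratio of -1.33 (65454 reads in the wild type, 23988 in WRKY75RNAi), the extensin-like AT2G43150 had 178 and 67.6 RPKM, a log2 ratio of -1.39, and the galacturonosyltransferase-like gene GATL10 had 89.0 and 37.7, a log2 ratio of -1.24. FUT4, which adds fucose to wall arabinogalactan proteins, had 63.5 and 26.1 RPKM, and its second listed model gave a log2 ratio of -1.22 against -1.28. Of EXT3, 29.6% of the span lies opposite another annotated gene, AT1G21313, which was not listed. Without EXT3 the median of all members was -1.53, and the summed RPKM of the others was 1654 in the wild type and 602 in WRKY75RNAi.

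Larger ratios in this class came from rarer transcripts, a pattern that the p-value cut of the authors' list itself favours. UGT73D1, a glucosyltransferase that uses UDP-glucose, had 220 reads in the wild type and 30 in WRKY75RNAi, a log2 ratio of -2.75 (interval -3.36 to -2.20). The beta-glucosidase gene BGLU31 had 228 and 40 reads. The chitinase-like gene AT4G19820 had 30 and 3, the extensin-like gene AT3G28550 had 32 and 6, and the expansin gene EXPA14 had 20 and 4. The interval ran from -3.84 to -1.02 for AT3G28550 and from -4.21 to -0.625 for EXPA14. TBL31, of a family that acetylates wall polysaccharides, had 8 reads and 0, and the pectin lyase-like gene AT5G17200 had 11 and 0. The wall class therefore held both the most abundant member and some of the scarcest.

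Among channels and transporters, the 3 glutamate receptor-like genes encode ligand-gated cation channels of the plasma membrane. GLR2.8 had 11.7 RPKM in the wild type and 4.43 in WRKY75RNAi, its neighbour GLR2.9 had 0.576 and 0.193, and ATGLR1.2 had 2.75 and 1.14, with log2 ratios of -1.40, -1.58 and -1.27. The second model of ATGLR1.2 gave -1.24. AT2G35730, of a family of heavy metal-binding proteins, had 78 and 24 reads, and UMAMIT30, of a family of amino acid exporters, had 106 and 44. PIN4, an auxin efflux carrier, was the member nearest to a 2-fold difference, with 281 reads in the wild type and 129 in WRKY75RNAi and a log2 ratio of -1.004. IRT1, the iron transporter of the root surface, had 10 reads in the wild-type leaves and 0 in WRKY75RNAi, at least 3.07-fold lower against a floor of 3 reads per library. That floor leaves out counting error in the wild type, and the exact interval of the log2 ratio reached up to -1.04.

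The 7 small secreted peptides, proteases and inhibitors were led by AT1G72060, a serine protease inhibitor gene, at 54.6 RPKM in the wild type and 22.3 in WRKY75RNAi. Its span overlaps AT1G72070 on the opposite strand over 46.8%, and that gene was also listed as lower with 788 and 301 reads, so the reads of the pair cannot be told apart. AT2G20562 (taximin), a small secreted peptide, had 20.5 and 9.28 RPKM. The aspartyl protease gene AT3G51340 had 130 and 50 reads, AT5G46871 had 106 and 42, and AT5G55131 had 25 and 4. The thionin-like gene AT1G12672 had 10 reads and 0, and the cysteine protease gene AT1G29090 had 11 and 0. The 4 genes with at least 100 wild-type reads lay close together, between log2 ratios of -1.29 and -1.15.

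Of the 15 members with other roles, PP2-B13 and PP2-B14 stood furthest from equality among those with at least 100 wild-type reads. Both encode F-box proteins related to a phloem lectin, and PP2-B14 is the VIP1-binding F-box protein VBF, known from Agrobacterium infection. PP2-B13 had 18.9 RPKM in the wild type and 2.31 in WRKY75RNAi, a log2 ratio of -3.03, and PP2-B14 had 4.87 and 0.942, a log2 ratio of -2.37. A long noncoding RNA gene, AT1G56242, covers 79.6% of PP2-B13 on the opposite strand and was listed as lower too, with 322 and 41 reads, so the reads of this pair cannot be told apart either.

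AT3G29000, a calcium-binding EF-hand protein gene, was abundant at 89.96 RPKM in the wild type and 28.3 in WRKY75RNAi. The formin-domain gene AT1G42980 had 126 and 38 reads. AT3G11000 had 58 reads in the wild type and 8 in WRKY75RNAi in its main model, a log2 ratio of -2.74, but 41 and 15 in its second, a log2 ratio of -1.33, so its size depends on the model. The RING-type protein genes AT1G51930 and AT4G09130 had 16 and 10 reads in the wild type and 0 in WRKY75RNAi, and the exact intervals of their log2 ratios reached up to -1.83 and -1.04. RABA4C, a Rab GTPase of vesicle traffic and the member closest to the transport machinery itself, had 8.65 and 3.52 RPKM.

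Some members stood next to relatives. With a gap of at most 5 genes, 31 members (26.7%) fell into 12 arrays, 9 pairs were direct neighbours, and in 11 of the 12 arrays every member belonged to 1 role class. Besides the Berberine arrays these included CRK36, CRK37 and CRK39, CRK31 with CRK32 and AT4G11521, the pair of PP2-B genes, GLR2.8 with GLR2.9, CYP82C2 with CYP82C3, and the cyclopropane fatty acid synthase genes AT3G23510 and AT3G23530. Over all lower loci 351 of 850 had another lower locus within that gap, a share that also depends on the larger number of loci. Of 20 genes lying between array members, 3 were listed as lower (AT1G26410, AT1G51920 and AT1G61470), none as higher, and the other 17 were not listed. Genes beyond the outermost members were not counted. Some relatives there with close locus numbers were listed as higher, such as the Berberine gene AT1G30760 and the lectin kinase gene AT1G61400. The last pair, AT3G23510 with 167 and 71 reads and AT3G23530 with 2492 and 1114, is 97.1% identical in coding sequence and shares 19.4% and 18.2% of its 50-base words, so their separate values are uncertain. Over all members, 5 shared more than 10% of such words with another gene.

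The same families were then counted over the whole annotation, with words that were chosen after the members were seen. Against 3.08% lower and 4.17% higher of all annotated protein-coding genes, Berberine genes were listed as lower for 9 of 27 and as higher for 2. Those 2 were AT2G34810, at 72.0 RPKM in the wild type and 181 in WRKY75RNAi, and AT1G30760, at 1.503 and 3.70, so the family as a whole was not uniformly lower. Wall-associated kinase genes were lower for 6 of 19, among them WAK1 with 278 and 127 RPKM, which is not in the term, and higher for 1. Cysteine-rich receptor-like kinases were lower for 12 of 58 and higher for 2, receptor-like proteins lower for 11 of 52 and higher for 4, and lectin protein kinases lower for 12 of 80 and higher for 3. All 8 lower receptor-like proteins that are not members belonged to the defense response term, whose loci the membership rule leaves out. In contrast, genes described as fucosyltransferase were listed as lower and higher for 4 each of 53, and pectin lyase-like genes as lower for 3 (2.91%) and higher for 8 of 103. The membership rule used this contrast, so these counts describe the families and test nothing about the members.

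**Figure D4:**
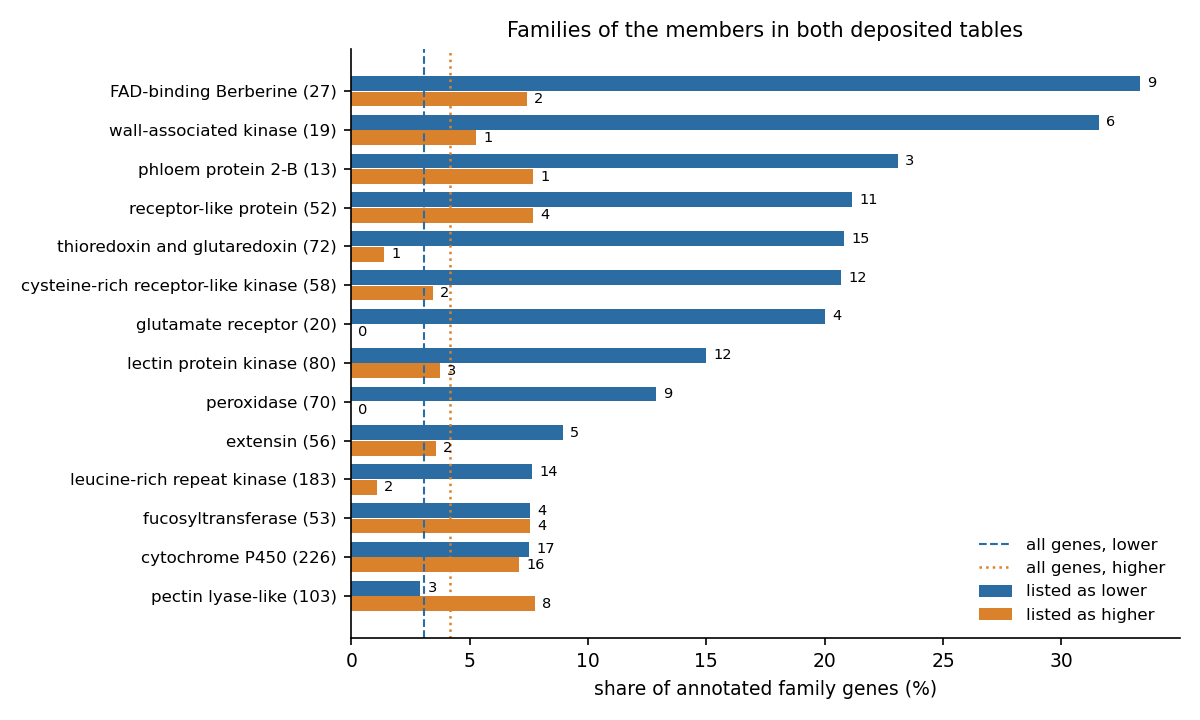
Share of annotated genes of each family listed as lower and as higher in WRKY75RNAi (horizontal axis, percent of the family), for families of at least 13 genes; numbers beside the bars are gene counts, the number in brackets is the family's size, and the dashed and dotted lines are the shares of all annotated protein-coding genes listed as lower (3.08%) and as higher (4.17%). Berberine and wall-associated kinase genes have the largest lower shares, 33.3% and 31.6%, while P450 genes are lower and higher at nearly the same share, 7.52% and 7.08%.

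The W-box was searched for as TTGACC or TTGACT on either strand in the 300 bases before each start. It occurred in 64 of 116 member promoters, or 55.2%, and at least 2 matches occurred in 23.3%. Of the other lower loci 45.9% had a match, of the loci in defense response 55.1%, of the higher loci 28.8%, and of all 27443 promoters 32.3%. Genes that carry the endomembrane words in their RefSeq note but were listed in neither direction had it in 36.2%. The share was thus highest among the lower loci, members and defense response alike, and the base composition was similar, with 29.98% G and C in member promoters and 31.4% in all. By class it was in 7 of 8 Berberine, 6 of 8 cysteine-rich receptor-like kinase and 3 of 10 peroxidase and redox promoters, small numbers of which several are tandem copies. No test was made of these shares, and the promoter letters were not used in choosing the members.

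Further promoters are shown for 3 of the members that hold 3 or 4 matches, again with the motif in capitals. They are those of the cysteine-rich kinase-related AT4G11521 and the P450 genes CYP82C3 and CYP82C2. Other members also hold 3 matches, such as CRK32, RLP28 and AT1G51860. CYP82C3 and CYP82C2 are close relatives in the same array, so their promoters are not independent of each other.
AT4G11521, chr4:6985217-6985516, plus strand: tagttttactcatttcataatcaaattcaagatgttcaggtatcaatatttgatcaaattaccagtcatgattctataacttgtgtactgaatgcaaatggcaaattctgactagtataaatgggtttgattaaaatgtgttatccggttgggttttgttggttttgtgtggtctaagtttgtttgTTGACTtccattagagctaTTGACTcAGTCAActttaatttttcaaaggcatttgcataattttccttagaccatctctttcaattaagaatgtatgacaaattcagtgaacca
CYP82C3 (AT4G31950), chr4:15454783-15455082, plus strand: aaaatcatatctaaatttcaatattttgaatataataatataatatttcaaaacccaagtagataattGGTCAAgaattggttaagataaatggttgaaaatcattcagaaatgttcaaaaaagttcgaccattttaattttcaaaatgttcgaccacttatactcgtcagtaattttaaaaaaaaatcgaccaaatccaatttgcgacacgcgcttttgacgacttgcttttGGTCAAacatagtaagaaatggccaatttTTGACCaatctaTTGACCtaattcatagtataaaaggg
CYP82C2 (AT4G31970), chr4:15462050-15462349, plus strand: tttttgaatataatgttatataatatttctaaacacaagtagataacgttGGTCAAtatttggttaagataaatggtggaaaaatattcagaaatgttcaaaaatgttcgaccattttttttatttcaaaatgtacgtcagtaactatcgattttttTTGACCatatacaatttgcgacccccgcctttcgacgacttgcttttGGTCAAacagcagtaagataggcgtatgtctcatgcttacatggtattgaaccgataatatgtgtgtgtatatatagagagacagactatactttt
CYP82C3, among the members nearest to a 2-fold difference, had a log2 ratio of -1.01, CYP82C2 of -1.15 and AT4G11521 of -1.82. The intervals of CYP82C3 (-1.83 to -0.238) and CYP82C2 (-1.77 to -0.557) overlap that of AT4G11521 (-2.16 to -1.496). Overlap of intervals does not decide whether the 3 ratios differ, and that was not tested. A relation between the number of matches and the ratio was not tested either.

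**Figure D5:**
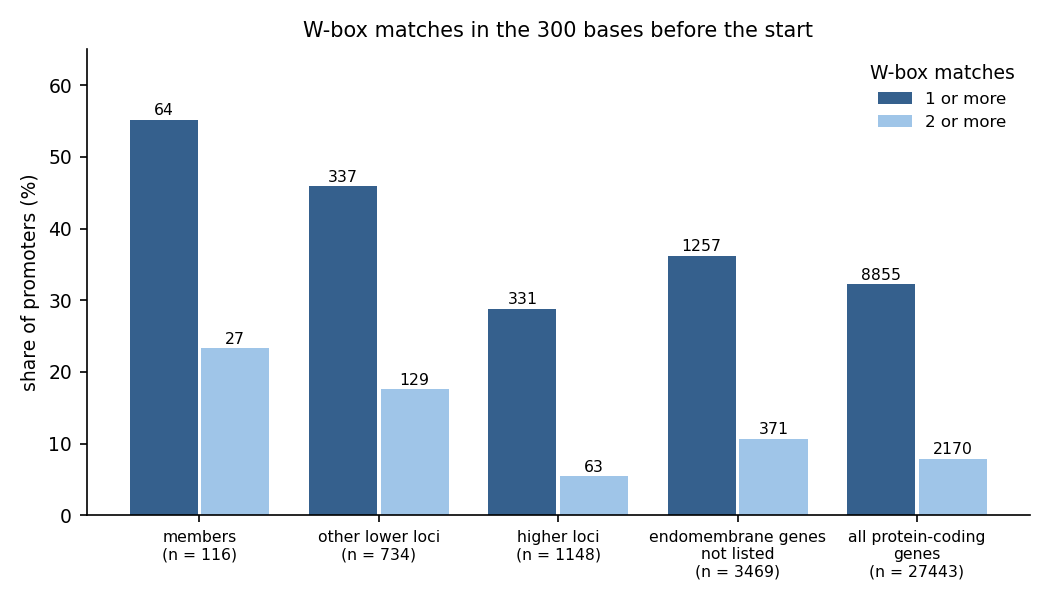
Share of promoters (vertical axis, percent) with 1 or more and with 2 or more W-box matches in the 300 bases before the annotated start, for the members and for 4 other sets of genes (horizontal axis); numbers above the bars are promoters with matches. The members stand at 55.2% and 23.3%, the other lower loci at 45.9% and 17.6%, and the higher loci at 28.8% and 5.49%.

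The encoded proteins were examined for the hydrophobic stretch near the N terminus that usually directs a protein into the secretory pathway. A window of 8 residues with a mean Kyte-Doolittle hydropathy of at least 2, within the first 30 residues, was present in 106 of 116 members, or 91.4%. It was present in 26.8% of all proteins and in 25.9% of the other lower loci, and in 89.7% of genes whose RefSeq note names the endomembrane system. All 116 members carry that note, and the share is not a finding about WRKY75RNAi. The 10 members without the stretch included the glutaredoxin and thioredoxin-fold genes AT1G06830, AT2G47870 and AT3G62950, the wall linker protein gene CWLP, CYP72A9, DRL1 and AtkdsA1, the gene of an enzyme that makes the wall sugar KDO. Of 3836 genes with the note, 4.90% were listed as lower and 4.67% as higher. Of genes without it, 2.79% were lower and 4.08% higher.

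In the authors' deposited table, the term was found for 131 of 857 lower genes and for 2482 of 27594 background genes, with an adjusted p-value of 1.39e-07 that compares genes and not plants. Of the 116 members, 85 also stood in at least 1 other of its 93 terms. Phosphorylation held 32, all of them in the kinase and lectin classes, and electron carrier held 18, of which 8 were P450 and 7 peroxidase and redox genes. No gene was in both, and 50 were in either. Among the members, FAD binding held exactly the 8 Berberine genes, out of 11 lower loci in that term.

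The machinery that moves proteins through the endomembrane system was looked at with a list of 36 genes. Only SYP122 was listed, a syntaxin of the plasma membrane that takes part in exocytosis, with 359 RPKM in the wild type and 160 in WRKY75RNAi, a log2 ratio of -1.17. None of the 18 endoplasmic reticulum chaperone and folding genes, the 5 translocon and glycosylation genes or the 5 regulators of the unfolded protein response was listed in either direction. Of all annotated protein-coding genes 3.08% were listed as lower and 4.17% as higher. At those shares a list of 36 genes would hold few listed ones, so these counts do not set the machinery apart. A gene that was not listed has no value in the tables, so a difference below the authors' threshold cannot be seen. SYP122 is not among the members.

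Next to the most similar sets of lower loci, the members had lower levels and similar ratios. Their median wild-type level was 2.67 RPKM, where the 69 loci in defense response had 12.7 and the 67 in signaling had 5.996; over all lower loci it was 2.79, close to that of the members. Median log2 ratios were -1.51 in the members, -1.51 in defense response and -1.47 in signaling. Accordingly the interval of the ratio reached differences smaller than 2-fold for 44.8% of members for 18.8% of the defense response loci and for 34.3% of the signaling loci. It did so for 14 of the 28 signaling loci outside defense response and the endomembrane system, and for 47.4% of all lower loci, so the members were near the lower loci at large in this respect. None of these differences was tested, since all sets were drawn from the same list of lower genes.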

How the data were processed

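Polyadenylated RNA of leaves was measured in 1 library for each genotype. Reads were aligned with Bowtie to TAIR10, per the submitters' processing notes; the sources used here do not give how reads were counted and filtered, or whether by strand. Per the file headers, the authors deposited read counts per transcript model, RPKM values, log2 ratios and p-values in tables of 998 lower and 1360 higher models, and a table of ontology terms. The deposited p-values were not used, apart from that of the term and to derive the number of tested models from ranks. Log2 ratios were recomputed from reads and library totals, because the deposited ones put 0.001 in place of 0.

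Library totals were derived from the deposited reads, RPKM and lengths. Each locus was reduced to the model with most reads. A row without a gene name, 0.103% of wild-type and 0.0384% of WRKY75RNAi reads, was left out. For members, the deposited length had a median of 0.924 times the genomic span; for 20 intron-rich members it was 1.50 times the spliced length, which lowers their RPKM but not their ratios. Ratios have exact 95% Clopper-Pearson intervals of the reads, which cover counting error only. The intervals were tested on simulated reads with counting error alone and no cut. Their coverage for genes chosen by a cut, as here, was not tested. Reads at 0 were set against a floor of 3 reads per library. No test of genotype was made. Promoters and translated coding sequences came from RefSeq TAIR10.1, whose nuclear chromosomes are those of TAIR10. Shared sequence was searched as exact words of 50 bases.

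The members and lists were chosen with earlier results of these data known, and role classes and family words after the members were seen. Named with values were, in each class, up to 5 members with the most negative ratio among those with at least 20 wild-type reads, the 10 most abundant, those with 0 reads, the 3 nearest to a 2-fold difference and those with several models, 75 in all; others were named after their values were seen. Python 3.11.15, scipy 1.17.1, pandas 2.3.3, biopython 1.88 and matplotlib 3.10.9 were used.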

Additional observations from a re-analysis of the deposited data

How the results depend on the processing

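No paired analysis was possible because each genotype has 1 library, and leaving out a replicate was not possible for the same reason. The median log2 ratio of the members was -1.51, and -1.27 with a pseudocount of 0.1 RPKM, -1.47 and -1.40 over members with at least 20 and 100 wild-type reads, -1.51 with models summed or with the loci left out by name and by the defense response term put back, and -1.69 when libraries were scaled to listed reads, which shifts every ratio by -0.17. With a pseudocount of 1 RPKM it was -0.93, and 58 of 107 members then lay within a 2-fold difference; 27 of the 107 had under 1 RPKM in the wild type. The 26 members at least 4-fold lower became 17 and 6 with pseudocounts of 0.1 and 1 RPKM, and 11 when the whole interval had to lie there; the other settings gave 22 to 33. The W-box share of 55.2% became 73.3% for the core TTGAC and 23.3% for 2 or more matches. It was 72.4% in 500 bases and 51.7% in a window of 250 bases before to 50 after the start. Both windows were chosen after seeing the data. In the same order, all promoters gave 50.4%, 7.91%, 45.2% and 32.4%, and the other lower loci 61.3%, 17.6%, 57.5% and 47.0%. The N-terminal share of 91.4% became 77.6% with a window of 12 residues and 92.2% over the first 40 residues. The machinery count stayed at 1. Of 66 named genes with reads in both libraries, 50 moved beyond their counting interval with a pseudocount of 1 RPKM and 1 with 0.1. Depth limits the 14 members under 20 wild-type reads.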
